A study of Mus musculus with 12 samples.

Results

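The transcripts described here encode chromatin remodellers and bromodomain proteins, chosen by gene symbol alone: every gene of the deposited table whose symbol begins with Smarc, Chd1 to Chd9, Arid1 to Arid5, Ino80 or Brd1 to Brd9. The rule finds 43 of the 11581 genes in the table, of which 11 are Smarc, 10 Chd, 9 Arid, 6 Ino80 and 7 Brd symbols. Of the 43, 41 encode remodellers, their subunits, readers of acetylated histones or, for 6 of them, ARID DNA-binding proteins outside the BAF remodellers. Together these 41 are called remodeller and reader genes here. The other 2 are neighbours that share a name, the long noncoding RNA Ino80dos and Chd3os (ENSMUSG00000043419, protein coding in GENCODE M21). A further 5 protein-coding genes that fit the rule, Arid3c, Brd3os, Chd5, Smarca1 and Smarcd3, have no row in the table and were not analysed here. The pseudogenes Smarca5-ps and Smarce1-ps1 also fit the rule without a row. Whether they share reads with Smarca5 and Smarce1 was not tested.

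The study asked how CD8 T cells differ when they lack functional Foxp3. The 3 unstimulated scurfy libraries are OT-1 cells with the Foxp3 scurfy allele and the 3 unstimulated wild-type libraries are OT-1 cells with wild-type Foxp3. OT-1 cells carry a transgenic T cell receptor for the SIINFEKL peptide of ovalbumin. In both groups the purified CD8 T cells came from C57BL/6J bone marrow chimeras taken 2 months after reconstitution. The marrow in each was a mixture of OT-1 CD45.1+/CD45.2+ marrow of the stated Foxp3 genotype and CD45.2+ marrow. The labels do not say whether CD8 T cells of the CD45.2+ marrow were removed, nor whether each library is a different mouse. The p-values therefore reflect variation among these libraries alone, and that variation may be technical. Foxp3 has no row among the 11581 genes, so the genotype labels were not checked on its transcript. Libraries given peptide were not analysed here.

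Chromatin remodellers use the energy of ATP, through a motor of the SNF2 type, to slide, evict or exchange nucleosomes. The BAF complexes are built on Smarca4 or Smarca2, the ISWI complexes on Smarca5 or Smarca1, the NuRD complex on Chd4 or Chd3 and the INO80 complex on Ino80, each with its own subunits. Bromodomain proteins bind acetylated histones and help recruit the transcription machinery. In the thymus, BAF and NuRD motors are known to be needed for normal T cell development.

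Smarca5, the motor of the ISWI complexes that space nucleosomes, was the single member that passed the limma test, being lower in scurfy cells. Its mean level was 2.00-fold lower in scurfy than in wild type. None of the other 40 remodeller and reader genes passed the test in either direction. By family, 1 of 11 Smarc genes fell, and 0 of 9 Chd remodellers, 0 of 9 Arid genes, 0 of 5 INO80 genes and 0 of 7 Brd genes passed. The test was limma on log2(normalized count + 1) across all 11581 genes, with a Benjamini-Hochberg adjusted p under 0.05 as the threshold, and every log2 fold change has wild type subtracted from scurfy. Among all genes 2.35% were called lower and 2.12% higher (4.47% in all), so 1 call among 41 genes is near the background. At an unadjusted limma p under 0.05, 8 members were lower and 4 higher, where 11.3% and 9.91% of all genes were. DESeq2 on recovered reads called 3 members lower, Smarca5, Arid2 and Arid4b, beside 4.76% of all genes (4.15% higher). The authors' deposited fold changes and adjusted p-values of these 3 genes nearly equal those from DESeq2, so they are not separate evidence. The edgeR and voom fits called Smarca5 alone, beside 2.53% and 2.47% of all genes lower (2.18% and 2.3% higher), and no member was higher in any of these fits. With genes under a mean of 50 left out 2 members were lower (3.66% of all genes), and scaled by library size alone 6 were (6.57%, with 1.46% higher). Fewer transcripts per cell and fewer cells of a kind cannot be told apart in bulk RNA.

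**Figure D1:**
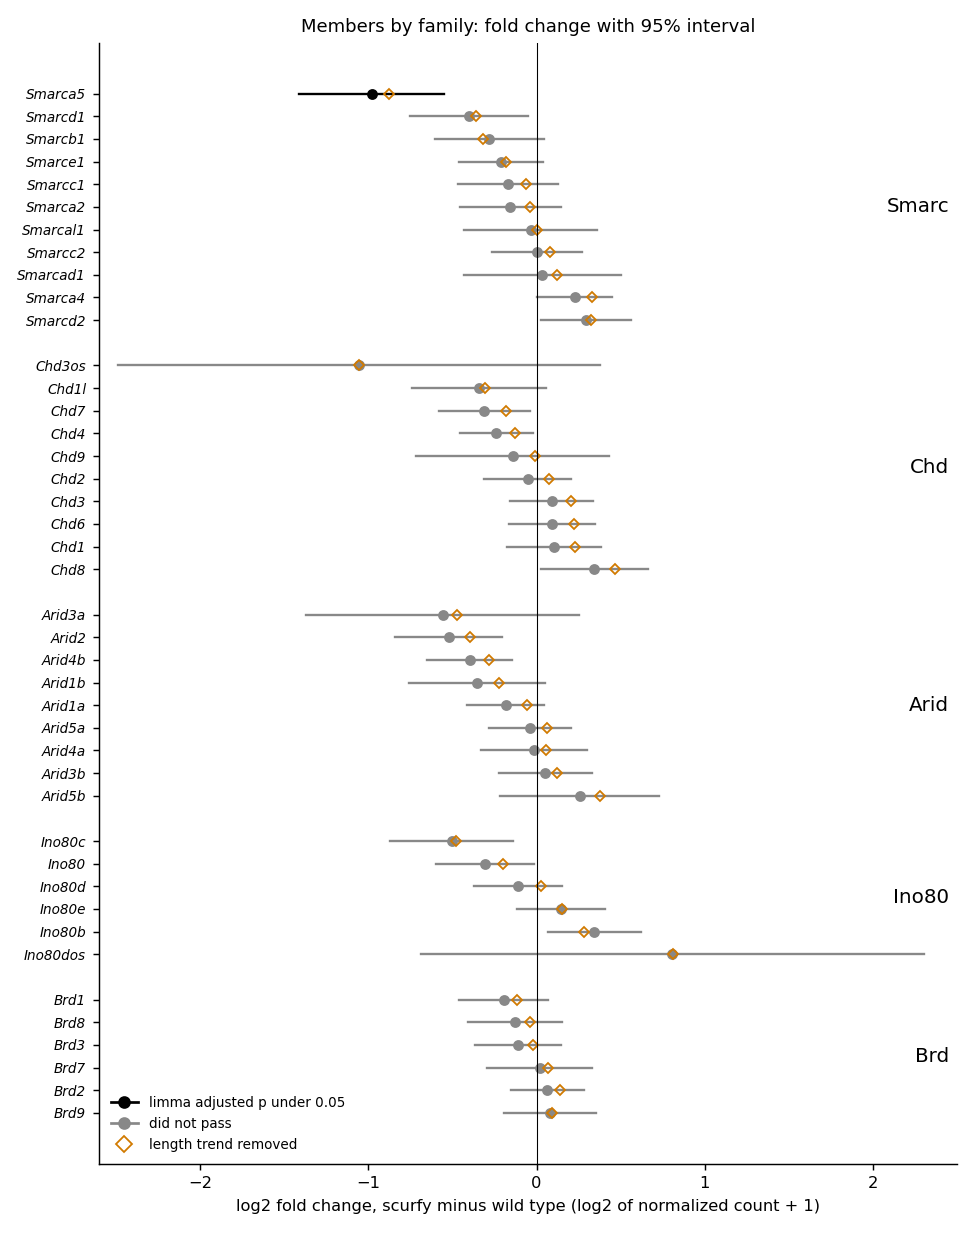
Log2 fold change of the genes reported, scurfy minus wild type, with its 95% limma interval, by family. Filled circles are the fitted values, black where the adjusted p is under 0.05, and open diamonds are the values after a trend with gene length was removed. Smarca5 at -0.98 stands alone as the black point, and the Brd genes drawn lie within 0.25 of 0.

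Smarca5 (ENSMUSG00000031715, chromosome 8) was at 184, 153 and 145 normalized counts in scurfy libraries 1 to 3 and at 262, 300.1 and 401 in wild-type libraries 1 to 3. Every scurfy library lay below every wild-type library, and wild-type library 3 was the highest. The means were 161 ± 20.6 and 321 ± 72.0 normalized counts (SD, n = 3 each), and they rested on 123 to 152 reads in scurfy and 197 to 621 reads in wild-type libraries. The log2 fold change was -0.98 (SE 0.20, 95% interval -1.41 to -0.55, limma adjusted p = 0.0178), and in the authors' deposited table it was -1.002 with an adjusted p of 0.000454. With the trend of fold change on gene length removed it was -0.88 (limma adjusted p = 0.0388), where 1.21% of all genes were called lower. The call ended without scurfy library 2 (limma adjusted p = 0.0555), without wild-type library 2 (0.0506) and without wild-type library 3 (0.0810), with fold changes of -0.95, -1.02 and -0.81.

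The promoters of 3 remodeller motors whose groups did not overlap are shown to set the gene that fell beside a motor that was higher in all scurfy libraries (Smarca4) and another that was lower (Ino80). They were chosen after the values were seen. Each window runs from 250 to 51 bases before the RefSeq transcript start in GRCm38.p6, on the coding strand. Capitals mark GGGCGG (the GC box), CCAAT and CCGGAA (an Ets-type core), searched on both strands.
Smarca5, chr8:80739510-80739709, minus strand: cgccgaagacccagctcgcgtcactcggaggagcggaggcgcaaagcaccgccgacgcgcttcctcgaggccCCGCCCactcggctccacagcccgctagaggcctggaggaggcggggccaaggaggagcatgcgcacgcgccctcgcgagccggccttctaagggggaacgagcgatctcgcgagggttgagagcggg
Smarca4, chr9:21615919-21616118, plus strand: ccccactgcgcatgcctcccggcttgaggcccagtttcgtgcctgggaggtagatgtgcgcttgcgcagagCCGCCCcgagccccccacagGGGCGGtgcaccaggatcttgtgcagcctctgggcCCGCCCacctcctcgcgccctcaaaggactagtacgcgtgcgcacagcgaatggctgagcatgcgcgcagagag
Ino80, chr2:119477738-119477937, minus strand: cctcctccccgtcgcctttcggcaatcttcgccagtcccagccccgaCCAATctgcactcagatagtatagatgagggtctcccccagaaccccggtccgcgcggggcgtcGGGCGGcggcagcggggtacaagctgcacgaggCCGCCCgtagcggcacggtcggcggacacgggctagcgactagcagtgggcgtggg

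All 3 windows are rich in G and C, at 72.0% for Smarca5, 68.5% for Smarca4 and 69.5% for Ino80. The GC box occurs once in the Smarca5 window, 3 times in that of Smarca4 and in 2 places in that of Ino80, which also holds 1 CCAAT. No CCGGAA was found in these windows. RefSeq promoters matched 30 of the 43 genes, with 40 windows. Among these windows 62.5% held a GC box, against 43.9% of the windows of all genes in the table and 24.6% of all mouse windows of the same length. CCAAT was in 22.5% of them (29.3% and 28.4%) and CCGGAA in 10 of the 40 (15.5% and 8.03%). A match is a run of letters, not a measured binding site.

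The 41 genes as a set lay slightly lower in scurfy cells, with a median log2 fold change of -0.11 against 0.01 over all genes, 25 below 0 and 16 above. In each library, the median deviation of the 41 genes from their own means over the 6 libraries was -0.04, -0.05 and -0.02 (log2) in scurfy and 0.11, 0.10 and 0.00 in wild type. The scurfy libraries were all below the wild-type ones, and wild-type library 3 was nearest to them. Without any overlap between the groups were 14 of the 41 genes, 11 lower and 3 higher in scurfy, where 13.7% of all genes were lower and 13.4% higher in that sense (27.1% in all). When library size alone set the scale, the median of all genes moved by -0.14 and that of the 41 genes to -0.24. Relative to all genes it was -0.12 under both scalings.

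Fold changes also differed with gene length across the table. The median exonic length was 5580 bases for the 43 genes and 2952 bases for all genes, and 35 of the 43 (81.4%) were longer than the latter. Log2 fold change and length had a Spearman correlation of -0.27 over the 11571 genes of known length, which are genes and not replicates. Within the 41 genes it was -0.07. Among genes with over 4000 bases the median was -0.08 for all 3840 and -0.11 for the 30 members, and 19.2% of the former and 9 of the latter (30.0%) were lower in scurfy without overlap between the groups. With a smooth length trend removed from each library, the median of the 41 genes was 0.00 against 0.01 for all genes, with 21 above 0 and 20 below. Whether length or a property that goes with it accounts for the lower median was not tested.

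**Figure D2:**
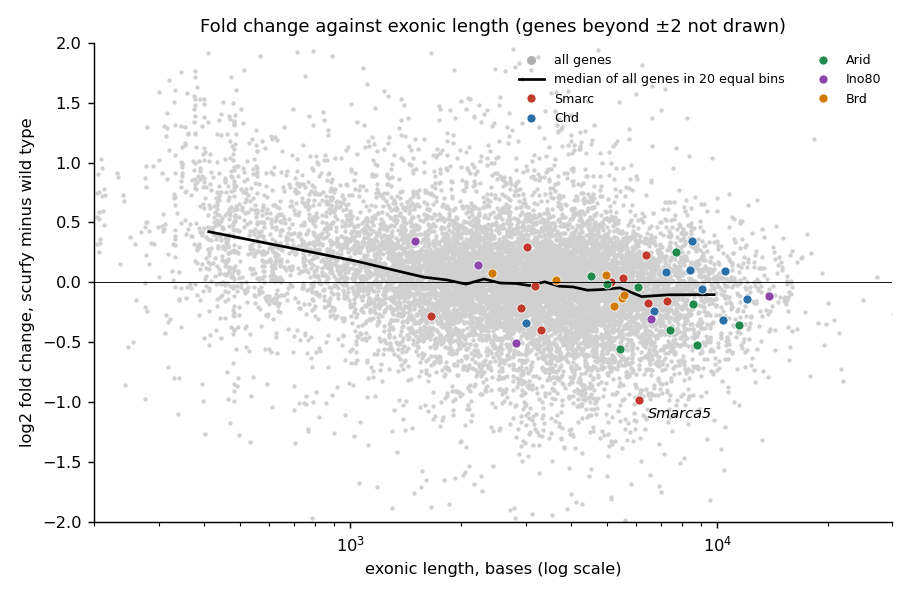
Log2 fold change against exonic length in bases (log axis) for all genes in grey and for the reported remodeller and reader genes coloured by family. The black line joins medians of all genes in bins of equal size, which fall from above 0 for short genes to below 0 for long ones. Most members lie in the right-hand part and around the line, and Smarca5 lies far below it.

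Among the BAF complexes, the motor Smarca4 (Brg1) and the alternative motor Smarca2 (Brm) both had a row. Smarca4 (ENSMUSG00000032187, chromosome 9) was at 1537, 1423 and 1454 normalized counts in scurfy libraries 1 to 3 and at 1285, 1276 and 1208 in wild-type libraries 1 to 3. All scurfy libraries were above all wild-type ones. The difference was small, at 0.23 (SE 0.10, 95% interval 0.00 to 0.45), and did not pass (limma adjusted p = 0.227). Smarca2 was at -0.16, with overlapping groups.

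None of the core BAF subunits passed. The scaffold subunit Smarcc1 (-0.17) and the subunit Smarce1 (-0.21) were lower in every scurfy library than in any wild-type library. Smarcb1, the subunit lost in rhabdoid tumours, was at -0.28, and the second scaffold Smarcc2 was at 0.00, both with overlapping groups.

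The alternative subunits Smarcd1 and Smarcd2, of which a BAF complex holds a single kind, differed in opposite directions. Smarcd1 (ENSMUSG00000023018, chromosome 15) was at 613, 422 and 423 normalized counts in scurfy libraries 1 to 3 and at 639, 705 and 558 in wild type (a log2 difference of -0.40, SE 0.16, limma adjusted p = 0.175). Scurfy library 1 lay within the wild-type range and the other scurfy libraries below it. Smarcd2 was at 1108, 976 and 976 in scurfy and at 848, 729 and 929 in wild type (0.29, SE 0.13, limma adjusted p = 0.197), all scurfy libraries being the higher. Neither gene passed.

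Arid2 (ENSMUSG00000033237, chromosome 15), the DNA-binding subunit of the PBAF form, was at 621, 702 and 634 normalized counts in scurfy libraries 1 to 3 and at 1179, 892 and 779.7 in wild type. The groups did not overlap, and wild-type library 1 stood above the other wild-type libraries. The means were 652 ± 43.4 and 950.2 ± 206 (SD, n = 3 each). This is a log2 fold change of -0.52 (SE 0.15, 95% interval -0.84 to -0.20) that just missed the threshold (limma adjusted p = 0.0595). It passed in the authors' deposited table, at -0.54 with an adjusted p of 0.0198, and was at -0.40 with the length trend removed (limma adjusted p = 0.155).

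Arid1a and Arid1b, the alternative DNA-binding subunits of canonical BAF, were lower in all scurfy libraries, at -0.18 and -0.35, and did not pass. Arid1a was the more abundant of the pair, at 199 normalized counts per kilobase of exon against 21.4 for Arid1b in wild type. Of the bromodomain subunits, Brd7 of PBAF was at 0.02 and Brd9 of the noncanonical BAF form at 0.08, both with overlapping groups. Of the 11 BAF subunits other than the motors, 7 lay below 0 and 4 above, with a median of -0.18 that was -0.07 with the length trend removed.

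**Figure D3:**
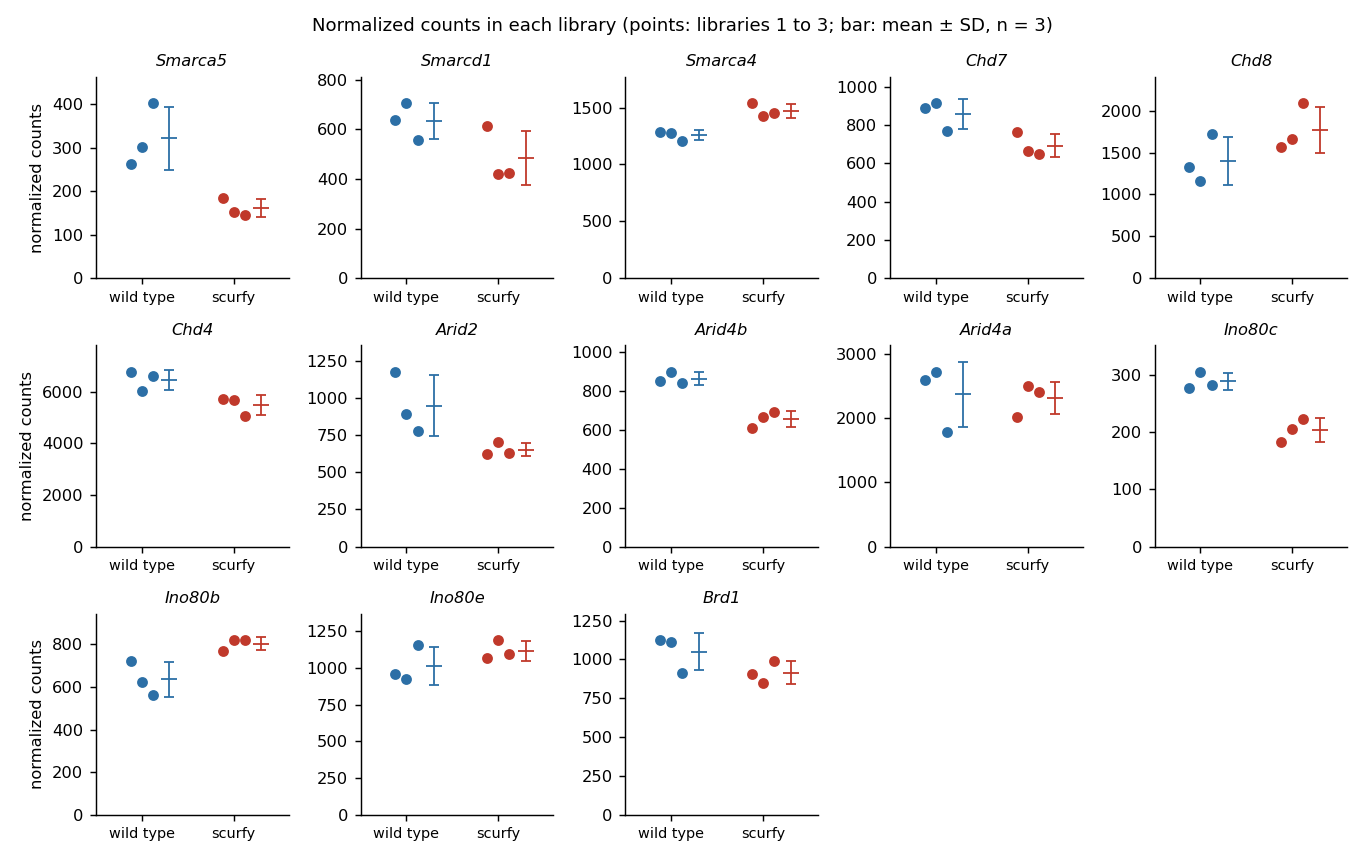
Normalized counts in each library of members with the smallest p or the highest level of their family, wild type in blue and scurfy in red, points being libraries 1 to 3 and bars the mean ± SD (n = 3). Every vertical axis starts at 0. The groups separate for Smarca5, Smarca4, Chd7, Chd4, Arid2, Arid4b, Ino80c and Ino80b, and overlap for Smarcd1, Chd8, Arid4a, Ino80e and Brd1.

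The CHD motors, most of which carry chromodomains beside the SNF2 motor, held the most abundant members. Chd4 (Mi-2β, ENSMUSG00000063870, chromosome 6), the main motor of NuRD, was at 5734, 5671 and 5061 normalized counts in scurfy libraries 1 to 3 and at 6783, 6035 and 6601 in wild type. It was lower in every scurfy library, by 0.24 on the log2 scale (SE 0.10, 95% interval -0.46 to -0.02), and did not pass (limma adjusted p = 0.197). Chd3, the alternative NuRD motor, was at 6070.2, 5111 and 4958 in scurfy and at 4761, 4681 and 5721 in wild type, a log2 fold change of 0.09 with overlapping groups. Per kilobase of exon, Chd4 at 964 and Chd3 at 696 normalized counts in wild type were the highest of the 43 genes. Arid4a followed at 474, and Chd9 at 7.61 was the lowest of the 41. Reverse transcription started from the poly(A) tail, so levels per kilobase may understate long genes, which was not tested.

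Chd7 and Chd8, related motors of the CHD6 to CHD9 subgroup, lay on opposite sides of 0. Chd7 (ENSMUSG00000041235, chromosome 4), which acts at enhancers, was at 762, 664 and 650.2 normalized counts in scurfy libraries 1 to 3 and at 891, 913 and 770.5 in wild type (a log2 difference of -0.31, SE 0.13, limma adjusted p = 0.172). The groups did not overlap, though scurfy library 1 and wild-type library 3 were close. Chd8 (ENSMUSG00000053754, chromosome 14), a repressor of beta-catenin targets, was at 1567, 1659 and 2086 in scurfy and at 1328, 1163 and 1716 in wild type (0.34, SE 0.15, limma adjusted p = 0.197). Library 3 was the highest of each group, and the groups overlapped.

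Other CHD genes showed no difference beyond their spread. Chd1 and Chd2, which act on transcribed chromatin, were at 0.11 and -0.05, Chd6 was at 0.09 and Chd9 at -0.14. Chd1l, a motor activated by poly(ADP-ribose) in the response to DNA damage, was at -0.34 (SE 0.19), with scurfy library 1 at 234 normalized counts and the other scurfy libraries at 397 and 326. The 9 CHD motors had a median of -0.05, which became 0.07 with the length trend removed. Exons of Chd2 overlap those of the noncoding gene 1810026B05Rik on the same strand, so their reads may be shared.

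In the INO80 complex, which slides nucleosomes and acts on the histone variant H2A.Z, genes for different subunits also lay on both sides of 0. The motor gene Ino80 (ENSMUSG00000034154, chromosome 2) was at 563, 592 and 459.8 normalized counts in scurfy libraries 1 to 3 and at 674, 671 and 641 in wild type (a log2 difference of -0.31, SE 0.14, limma adjusted p = 0.210). All scurfy libraries lay below the wild-type ones, library 3 by the most. Ino80c (ENSMUSG00000047989, chromosome 18) was at 183, 205 and 223 in scurfy and at 278, 306 and 283 in wild type (-0.50, SE 0.17, 95% interval -0.87 to -0.14, limma adjusted p = 0.107), again without overlap.

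Ino80b (ENSMUSG00000030034, chromosome 6) went the other way, at 768, 818 and 820.4 normalized counts in scurfy libraries 1 to 3 and at 723, 621 and 562 in wild type. Every scurfy library was the higher, by 0.34 on the log2 scale (SE 0.13, 95% interval 0.07 to 0.62, limma adjusted p = 0.143). Ino80e, the most abundant of these subunits, was at 1064, 1191 and 1095 in scurfy and at 958, 924 and 1157 in wild type (0.15, SE 0.12), with wild-type library 3 inside the scurfy range. Ino80d was at -0.11 with overlapping groups. None of the 5 passed, and their median of -0.11 became 0.03 with the length trend removed.

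The ARID proteins outside BAF bind DNA and work with other partners. Arid4b (ENSMUSG00000039219, chromosome 13), a subunit of the Sin3 histone deacetylase complex, was at 608, 666 and 692 normalized counts in scurfy libraries 1 to 3 and at 851, 898 and 839 in wild type. The groups were well apart, with means of 655 ± 42.9 and 863 ± 31.4 (SD, n = 3 each). The log2 fold change was -0.40 (SE 0.12, 95% interval -0.65 to -0.14), which did not pass in limma (adjusted p = 0.0720). In the authors' deposited table it did, with an adjusted p of 0.0402, and with the length trend removed it was at -0.28 (limma adjusted p = 0.194). Exons of Arid4b and of Ggps1 on the other strand overlap by 257 bases, so their reads may be mixed.

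Arid4a, the close relative of Arid4b in the same complex and the most abundant Arid gene, was at 2021, 2499 and 2410.3 normalized counts in scurfy and at 2592, 2722 and 1789 in wild type (-0.02, SE 0.15). Its groups overlapped, wild-type library 3 being the lowest of all. Arid3a, known from B cells, was scarce at 34.2 to 42.6 normalized counts in scurfy and 39.6 to 96.5 in wild type (-0.56, SE 0.38). Arid3b was at 0.05, Arid5a, which stabilises cytokine messenger RNA, at -0.04, and Arid5b, a partner of the histone demethylase Phf2, at 0.26. All of these overlapped between the groups.

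Among bromodomain readers none passed. Brd1 (ENSMUSG00000022387, chromosome 15), a scaffold of histone acetyltransferase complexes, was at 903, 847 and 992 in scurfy and at 1126, 1112 and 911 in wild type (-0.20, SE 0.12, limma adjusted p = 0.391). Wild-type library 3 lay within the scurfy range.

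The BET proteins Brd2 and Brd3 were at 0.06 and -0.11, and Brd8, a subunit of the TIP60 acetyltransferase complex, was at -0.13. All 7 Brd genes lay within 0.25 of 0, and none had groups that did not overlap. Their 95% intervals reached 0.22 to 0.31 to each side. A difference smaller than the half-width of its own gene would not reach an unadjusted limma p under 0.05. These intervals are not adjusted for the number of genes, so larger differences could miss the adjusted threshold too. The family median was 0.02, and on library size alone it was -0.12, beside the shift of -0.14 of all genes under that scaling. The other family medians were -0.16 for Smarc and -0.18 for Arid, which became -0.04 and -0.06 with the length trend removed.

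SNF2-type motors of the Smarc family outside BAF and ISWI showed no difference beyond their spread. Smarcal1, which restarts stalled replication forks, was at -0.03 (SE 0.19), and Smarcad1, which acts at silent chromatin during replication, at 0.03 (SE 0.22). The 15 SNF2-type motors among the members had a median of -0.05, with 9 below 0 and 6 above. Of the rows that are not remodellers, Ino80dos was at 7.27, 40.3 and 16.5 normalized counts in scurfy and at 5.32, 15.0 and 10.1 in wild type. Chd3os was at 21.8, 34.2 and 3.55 in scurfy and at 41.2, 37.2 and 19.3 in wild type. Both were too low to place, with log2 fold changes of 0.81 (SE 0.70) and -1.06 (SE 0.67).

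Some members share exonic bases with other annotated genes, and reads there may be mixed. Smarca5 shares 281 bases with Gm45872 on the same strand. On the opposite strand reads mix if counting ignored strand. There, among other overlaps, Chd8 shares 953 bases with Gm26590, Ino80e 1103 with Doc2a, Ino80d 431 with Ino80dos and Brd2 360 with H2-DMa. Arid3b shares 360 with Gm17231, Smarcd1 287 with Gm17349 and 224 with Gm34939, and Smarcc1 123 with Dhx30.

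Ratios between related genes within a library do not depend on the scaling of that library. The 8 pairs of alternative or related genes were chosen after their values were seen, and 3 of them had groups that did not overlap. The ratio of Smarcd1 to Smarcd2 in scurfy libraries 1 to 3 was 0.553, 0.433 and 0.433, against 0.754, 0.967 and 0.601 in wild type. It was lower in each scurfy library, and scurfy library 1 came nearest to wild type. The ratio of Chd3 to Chd4, the alternative NuRD motors, was 1.06, 0.901 and 0.980 in scurfy and 0.702, 0.776 and 0.867 in wild type, higher in each scurfy library. That of Arid4a to Arid4b was 3.32, 3.75 and 3.49 in scurfy and 3.05, 3.03 and 2.13 in wild type, also higher, with wild-type library 3 apart from the rest.

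The log2 differences of these ratios were -0.69, 0.33 and 0.38. They are given without a test, since an exact permutation of 3 against 3 libraries cannot give a two-sided p below 0.1. The ratios of Smarca4 to Smarca2 (0.38), Chd8 to Chd7 (0.65), Smarcc1 to Smarcc2 (-0.17), Arid1a to Arid1b (0.17) and Brd7 to Brd9 (-0.06) had overlapping groups.

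**Figure D4:**
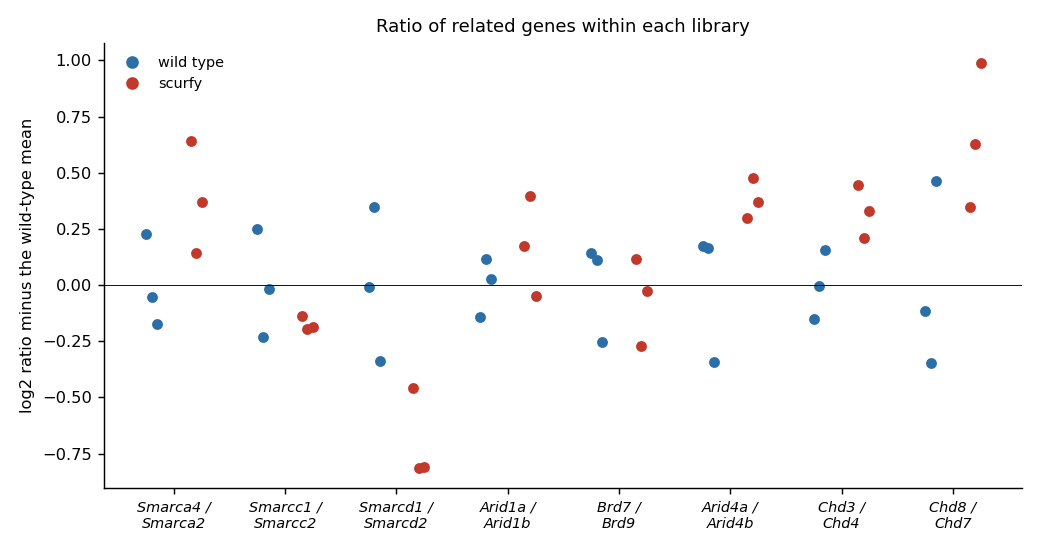
Log2 ratio of normalized counts of 8 gene pairs in each library, minus the wild-type mean of that pair, wild type in blue and scurfy in red. The groups do not overlap for Smarcd1 to Smarcd2 (scurfy lower) and for Arid4a to Arid4b and Chd3 to Chd4 (scurfy higher).

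Partners of these proteins in the same complexes, other SNF2-type motors and other bromodomain proteins were taken from 8 lists with 116 distinct genes. Of the 116, 107 had a row. All are called partners or partner genes here, though the lists of motors and bromodomain proteins are not lists of complex partners. Of the 107, 6 fell, none rose in limma, and 101 did not pass, beside 2.35% of all genes lower and 2.12% higher. The median log2 fold change of the 107 was -0.12, and -0.03 with the length trend removed. At an unadjusted limma p under 0.05, 17 were lower and 7 higher (11.3% and 9.91% of all genes). DESeq2 called 8 lower, edgeR 6 and voom 7 (4.76%, 2.53% and 2.47% of all genes), and each of them called 1 higher, Znhit1 of the SRCAP complex (0.61, limma adjusted p = 0.0503). The adjusted calls lower in scurfy were 2 of 11 BAF and PBAF partners, 1 of 26 INO80, SRCAP and TIP60 partners, 2 of 25 other bromodomain proteins and 1 of 8 P-TEFb and BET partners.

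Kat2b (Pcaf), a bromodomain histone acetyltransferase, fell from 363 ± 33.0 to 187 ± 34.6 normalized counts (SD, n = 3 each), or by 0.97 on the log2 scale (limma adjusted p = 0.0128). It was at 174, 159.9 and 226 in scurfy and at 331, 362 and 397 in wild type, and it kept its call without any library other than wild-type library 3 (limma adjusted p = 0.0571). Ss18, a BAF subunit, fell by 0.73 on the log2 scale, from 673 ± 133 to 401 ± 12.9 normalized counts (limma adjusted p = 0.0202). Hexim1, the inhibitor of P-TEFb, fell by 0.65, from 835 ± 91.5 to 535 ± 85.8 (limma adjusted p = 0.0254). The groups did not overlap for any of the 3 genes.

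Calls of the other partners were closer to the threshold. Uchl5, a deubiquitinase found in INO80, fell by 0.59 (limma adjusted p = 0.0373). The BAF subunit Bcl7b fell by 0.46 (limma adjusted p = 0.0399) and the histone methyltransferase Ash1l by 0.55 (limma adjusted p = 0.0478). With the length trend removed Ash1l was at -0.42 (limma adjusted p = 0.147) and Bcl7b at -0.46 (0.0515), so both calls ended. Without wild-type library 3 none of the 6 partners passed, with limma adjusted p of 0.0875 for Ss18, 0.0778 for Hexim1, 0.130 for Uchl5, 0.118 for Bcl7b and 0.159 for Ash1l. Leaving out other libraries also ended the calls of these 5, any of the 6 libraries for Bcl7b and any but wild-type library 1 for Uchl5 and Ash1l.

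No gene passed in limma among 12 NuRD partners, 8 ISWI partners, 13 other SNF2-type motors or 14 Sin3 complex partners. At an unadjusted p under 0.05 these lists held 1, 1, 0 and 2 lower and 0, 0, 1 and 1 higher genes, and DESeq2 and voom called Gatad2b. The smallest p in these lists belonged to Gatad2b of NuRD (-0.43, limma adjusted p = 0.0520), Rsf1, a partner of Smarca5 (-0.36, 0.190), the motor Ttf2 (0.53, 0.191) and Ing1 of the Sin3 complex (-0.33, 0.141). The list medians were -0.14 for NuRD, -0.11 for ISWI, -0.10 for the other motors and -0.10 for Sin3. For BAF and PBAF partners the median was -0.21, for INO80, SRCAP and TIP60 partners -0.03, for other bromodomain proteins -0.12 and for P-TEFb and BET partners -0.02. With the length trend removed the median of the other motors turned to 0.03, and the other 7 list medians stayed at or below 0, that of BAF and PBAF partners at -0.17 and that of NuRD partners at -0.13.

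**Figure D5:**
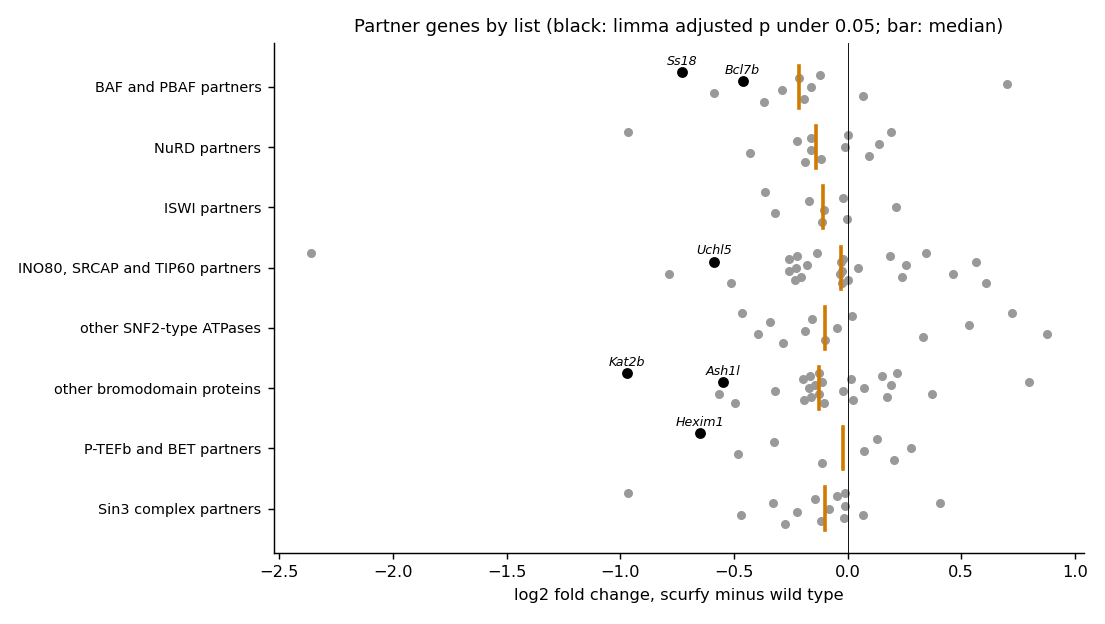
Log2 fold change of each partner gene with a row, by list, scurfy minus wild type. Black points have a limma adjusted p under 0.05, and orange bars are list medians, all of which lie below 0, though that of the other SNF2-type motors turned to 0.03 with the length trend removed. All 6 black points lie below 0.

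Purity and depth were read from the same 6 libraries. All 8 T cell markers had a row, and their summed level was 68260 to 75493 normalized counts in scurfy and 63254 to 65092 in wild type. None of 3 CD4 T cell or 4 natural killer cell markers had a row. Of 9 B cell markers 5 had a row, summing to 157 to 173 normalized counts in scurfy and 290 to 355 in wild type, with Ms4a1, Cd79a and Pax5 among those that had none. Of 6 myeloid markers Cst3 had a row (1406 to 1523 in scurfy, 821 to 1131 in wild type), and of 5 erythroid markers Car2 (101 to 156 and 232 to 315). Of the T cell markers 1 was called higher in limma (Cd3d, 0.76) and 7 did not pass. Of the B cell markers 1 was called lower (H2-Aa, -3.97) and 4 did not pass. Cst3 was called higher (limma adjusted p = 0.0202) and Car2 lower (0.0139), where 2.12% and 2.35% of all genes were. The sums, Cst3 and Car2 moved with genotype, and their part in the results above was not tested. Reads recovered over the genes of the table numbered 8852518 to 23149523 per library, the most in wild-type library 2.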

How the data were processed

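Per the labels' protocols, complementary DNA was primed on poly(A) tails with indexed oligonucleotides, amplified by in vitro transcription and sequenced. The submitters' processing notes name Trim Galore 0.4.4, STAR 2.6, featureCounts, edgeR, DESeq2 and build NCBIM37 without roles. The sources used here do not give whether counting was strand-specific. The deposited value is a signal, a read count the authors divided by a size factor per library. Per the file headers the table also holds the authors' log2 fold change, a test score (its Wald-type statistic), and p-values, raw and adjusted. The smallest mean in the table is 7.10 normalized counts, so low genes were left out by a rule not given. The table deposited for peptide-treated cells holds the same values under the same column names, and was not used.

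Groups and library numbers came from sample titles. Log2(value + 1) was fitted with limma 3.58.1 (R 4.3.3), using a variance trend and robust moderation, with 4 residual and 10.7 prior degrees of freedom. Benjamini-Hochberg adjusted p-values under 0.05 were called. Log2 fold changes on this scale understate changes of low genes. Means are given ± SD over deposited values. Values of all 6 libraries were whole multiples of 1 read, within 0.01 read for 100% of values. For wild-type library 2 the step had to be read from the smallest gap between values, because its smallest value is 2 reads. Taking that value as 1 read would leave most of its values not whole. A level of 3 reads is 1.45 to 3.99 normalized counts. Within groups, libraries differed by more than sampling noise (chi-square per gene 6.86 to 32.4). Recovered reads were tested with edgeR 4.0.16, DESeq2 1.42.0 and voom as alternatives, beside pseudocounts of 0.5 and 5, a mean of at least 50, library size alone, TMM, a loess length trend (span 0.3) removed, a replicate block and leaving out each library. The scripts were tested on simulated data.

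Exonic lengths and chromosomes came from GENCODE M21, which 11571 of 11581 gene IDs matched, and promoters from RefSeq (GRCm38.p6). These builds differ from the submitters', so no other positions are given. Values in every library are given for members past the threshold and, per family, for the 2 with the smallest p and the most abundant. A few items are not reported here, though counts and medians include them. From each partner list come the genes past the threshold, or otherwise the gene with the smallest p. Other genes given by library (Arid and Ino80 relatives, Smarcd2, Chd3, Ino80) were chosen after values were seen. Members, lists and pairs were chosen with earlier results of these data known.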

Additional observations from a re-analysis of the deposited data

How the results depend on the processing

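The count of members lower in scurfy was 1, and it was 2 with a mean of at least 50, 6 on library size alone, 3 in DESeq2, 0 with the replicate block and the length trend removed together, and 0 to 1 with a library left out. Under every alternative run no member was higher. The median of the 41 genes (-0.11) was -0.24 on library size alone, 0.00308 with the length trend removed, with or without the block, and -0.165 to -0.0590 with a library left out. Of the 41 genes, 27 kept their direction under every alternative, 20 lower and 7 higher, and 14 turned at least once, all within 0.11 of 0. Arid4a (-0.02) was 0.0587 with the length trend removed, with or without the block, and -0.207 to 0.0951 with a library left out. Partner genes lower (6) were 11 on library size alone, 3 with the replicate block, 1 with block and length together and 0 to 5 with a library left out. Partner genes higher (0) were 1 at a pseudocount of 5, with a mean of at least 50, in edgeR, DESeq2 and voom, and 0 to 1 with a library left out. Over all genes 518 were called, against 930 on library size alone, 891 in DESeq2, 249 with the length trend removed, 103 with block and length together and 113 to 403 with a library left out. On library size alone 169 were higher and 761 lower, against 246 and 272. Libraries that share a number did not deviate together (correlations 0.01, -0.04 and -0.07), against -0.09 to 0.12 for unlike numbers. So few libraries cannot show whether the numbers pair them. With the replicate block 372 genes were called, and Smarca5 kept its call (limma adjusted p = 0.0274), which it lost with block and length together (0.0733). The cause of these changes was not tested, and the fits with 1 library left out also hold fewer libraries. With 3 libraries a group, log2 differences under about the half-widths given for the Brd genes could not be detected. Some differences beyond the half-width of their own interval, such as that of Arid4b (-0.40), did not pass the adjusted threshold either.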
